A study of Mus musculus with 6 samples.

Results

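The Il12b locus was examined in a 120 kb window of mouse chromosome 11, from 44.16 to 44.28 Mb on build mm9, which holds the gene at about 44.2135 to 44.2276 Mb. Every deposited p300, PU.1 and H3K4me1 peak that touched the window was a member, chosen among the deposited peaks by position alone. The peaks themselves were called from these same reads. A site with a peak in 1 list alone therefore tends to be high in the condition of that list. There were 32 such peaks among 257266 in the 5 deposited lists of chromosomes 1 to 19 and X. The untreated p300 list gave 1 peak, the LPS p300 list 1, the untreated PU.1 list 9, the LPS PU.1 list 12 and the H3K4me1 list 9. Peaks of the same factor that overlapped were merged, which left 2 p300 sites and 12 PU.1 sites beside the 9 H3K4me1 peaks. Distances are given from 44.2135 Mb, the approximate gene start, with negative values upstream. The gene reads toward higher coordinates.

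The libraries were chromatin immunoprecipitations with sequencing from primary macrophages, grown from bone marrow of female Fvb mice and taken on day 7 of differentiation. Cells of the p300 and PU.1 groups were either left untreated or given LPS (lipopolysaccharide, 10 ng/ml) for 2 h. The H3K4me1 and input groups were untreated. All groups shared strain, culture and fixation, and the labels name no genotype beyond the strain. p300 had 2 biological replicates in each condition, while both PU.1 conditions, H3K4me1 and input (chromatin sequenced without precipitation) had 1 library each. The 8 libraries held 5503587 to 6428281 distinct reads, that is, reads counted once per position and strand. These assays measure no transcript, so neither Il12b RNA nor markers of the macrophage were read out.

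Il12b encodes the p40 chain that the cytokines IL-12 and IL-23 share. Macrophages and dendritic cells switch the gene on after contact with microbial products, through factors such as NF-kB, C/EBP and IRF proteins acting at its promoter and at upstream DNA. PU.1 is an ETS-family factor that marks and opens macrophage regulatory DNA. p300 is an acetyltransferase and co-activator that transcription factors bring to active enhancers and promoters, and H3K4me1 is a histone mark that spreads around enhancers.

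The promoter is shown because no p300 or PU.1 peak covered the gene start itself, while reads of both factors there were counted below. The 250 bases before the RefSeq start of Il12b are printed 5′ to 3′ as RefSeq gives them on build GRCm38.p6 (chr11:44399813-44400062, + strand), a later build than the mm9 of the peaks. Capitals mark GAGGAA, a core that PU.1 and other ETS factors bind, on either strand.

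Il12b promoter: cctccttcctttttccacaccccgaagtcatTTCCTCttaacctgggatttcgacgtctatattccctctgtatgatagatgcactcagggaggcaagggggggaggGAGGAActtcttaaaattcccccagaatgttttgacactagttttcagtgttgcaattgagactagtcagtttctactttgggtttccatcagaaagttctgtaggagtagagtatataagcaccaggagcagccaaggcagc

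GAGGAA was found 2 times, from 219 to 214 bases before the start on the minus strand and from 143 to 138 bases before it on the plus strand. Of 32851 RefSeq promoter windows of the same length, 23.25% held it. The other motifs searched on both strands were GGG and CC with any 5 bases between them for NF-kB, GAAA repeated after any 2 bases for the interferon-stimulated response element, TGANTCA for AP-1 and TTNNGNAA for C/EBP. None of these 4 had a match in these 250 bases, and 45.8%, 2.98%, 6.75% and 36.9% of all windows held them. No match says only that these letters are not in this stretch.

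Across the window, the highest p300 counts after LPS lay in a single upstream region, while PU.1 had strong sites on both sides of the gene. Of the 2 p300 sites, the one centred at -9.7 kb (44203364 to 44204167) had a peak in the LPS list alone. The one at 38.0 kb (44251385 to 44251625), past the end of the gene, had a peak in the untreated list alone. A peak in 1 list alone was the usual state: 61.8% of LPS and 61.9% of untreated p300 peaks in the genome overlapped none of the other list. Both sites overlapped PU.1 peaks of the untreated and of the LPS list, as 50.9% to 59.3% of p300 peaks did in the 4 pairs of lists. The -9.7 kb site also overlapped an H3K4me1 peak, as did 50.7% of LPS p300 peaks, whereas the 38.0 kb site lay 179 bp from the nearest one. No read of any library started from 15731 to 12756 bp upstream of the gene, a stretch of 2976 bp in which no site could be seen. In the RefSeq genes of GRCm38.p6 the nearest protein-coding neighbours are Adra1b on the upstream and Ublcp1 on the downstream side, and the lncRNA genes Gm12153 and Gm42073 lie next to Il12b.

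**Figure D1:**
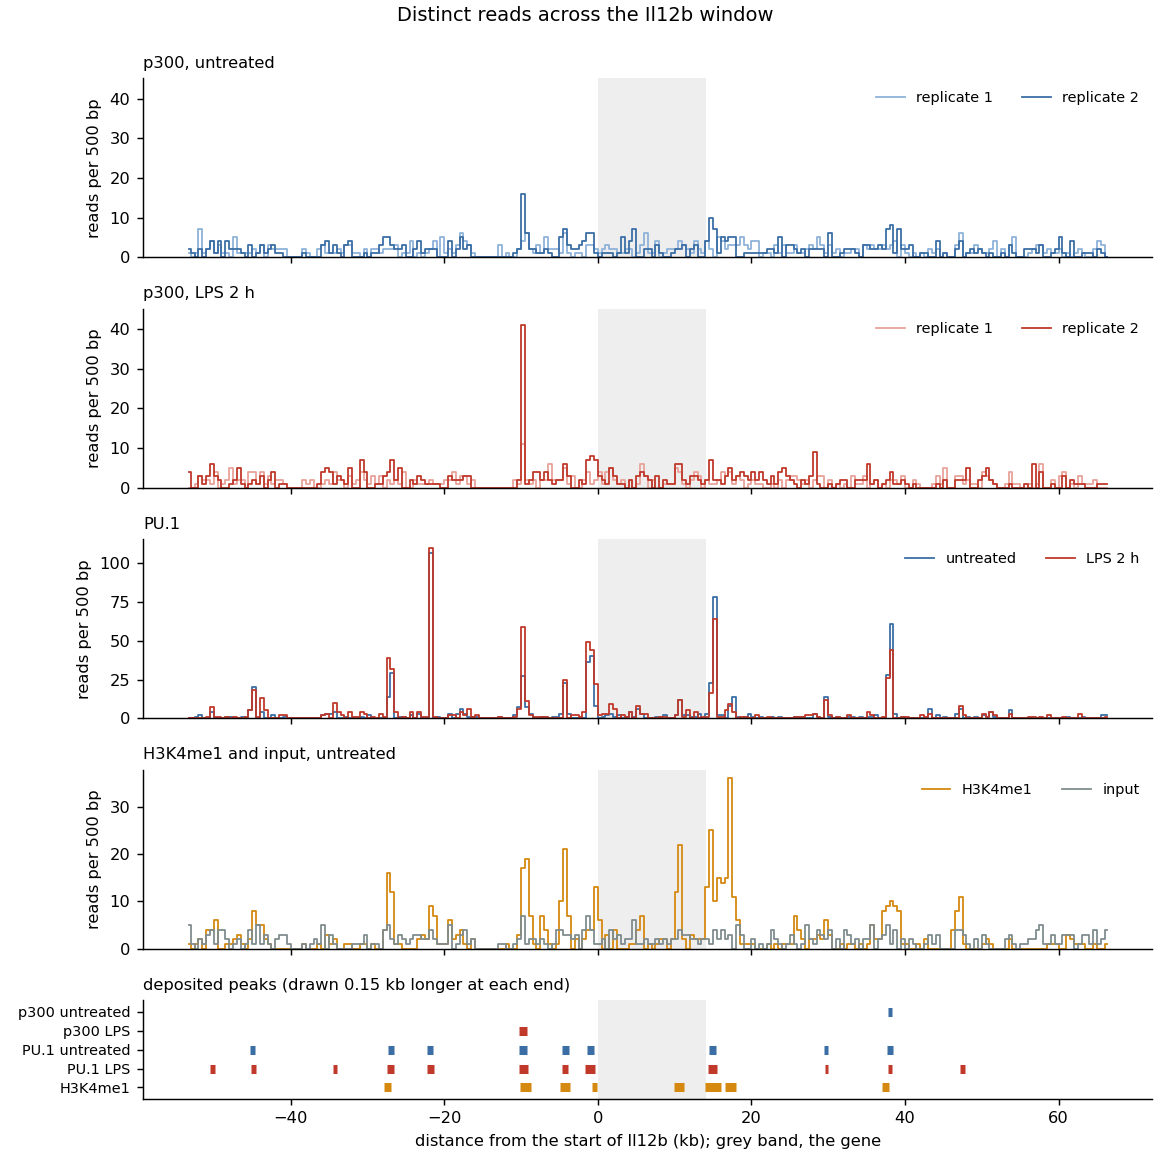
Distinct reads per 500 bp (vertical axes) against the distance from the start of Il12b in kb, for p300, PU.1, H3K4me1 and input, with the deposited peaks as bars in the lowest panel and the gene as a grey band. The tallest p300 step lies at -9.7 kb in LPS replicate 2, and the tallest PU.1 step lies at -21.8 kb, where p300 shows no peak.

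At the -9.7 kb site, p300 reads were more numerous after LPS within each replicate number, but the change did not pass the test across all p300 sites. The untreated replicates 1 and 2 had 5 and 21 reads, and the LPS replicates 1 and 2 had 12 and 44. Input had 8 reads there, and no 500 bp step of the window held more input reads than the 7 at -9.75 kb. The part of this in the p300 and PU.1 reads was not tested. In raw reads, and also per distinct read, the conditions overlapped, since untreated replicate 2 lay above LPS replicate 1. Replicate 1 libraries were less enriched in p300 than replicate 2 libraries: 1.89% and 2.84% of their distinct reads lay in p300 sites of the genome, against 7.16% and 6.46% for replicate 2 and 1.29% for input.

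After scaling for this by the median of ratios over all p300 sites, the site had 9.30 and 11.95 scaled reads in untreated cells and 17.4 and 28.7 after LPS. Both LPS libraries then lay above both untreated ones, with means of 10.6 ± 1.88 and 23.0 ± 8.00 (SD, n = 2 each). Such a separation upward was found at 26.9% of the 19727 p300 sites tested. The log2 fold change was 0.97 ± 0.55 (SE; 95% interval -0.11 to 2.06; limma voom, adjusted p = 0.309). A change at least as large was found at 28.5% of sites. The site entered through the LPS p300 list alone, so the upward direction was largely set by how it was found. Since the fit used 1 variance for all sites, this SE does not carry the replicate spread seen here.

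Pair by pair, counted per distinct read, LPS to untreated was 2.80 in replicate 1 (exact 95% interval 0.919 to 10.2) and 2.14 in replicate 2 (1.24 to 3.78). These intervals, like all exact intervals given here, cover counting error only. Over input, the pooled untreated p300 reads stood at 1.59 (0.701 to 4.07) and the pooled LPS reads at 3.75 (1.78 to 9.11). The untreated value differed between replicates: replicate 1 alone stood at 0.589 of input (0.152 to 2.04) and replicate 2 alone at 2.69 (1.14 to 7.01), so the more enriched replicate held p300 reads above input before LPS. LPS replicates 1 and 2 stood at 1.65 (0.620 to 4.65) and 5.74 (2.67 to 14.1). The authors' score of the peak, 10 times the -log10 p-value of their caller, was 179.85, which ranked 1934 of 12237 LPS p300 peaks.

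At the 38.0 kb site the reads ran the other way. Untreated replicates 1 and 2 had 4 and 13 p300 reads, LPS replicates 1 and 2 had 2 and 3, and input had 2. Scaled, these were 7.44 and 7.40 against 2.90 and 1.96, so that both LPS libraries lay below both untreated ones, as at 27.7% of tested sites. The log2 fold change was -1.57 ± 0.95 (SE; 95% interval -3.44 to 0.30; limma voom, adjusted p = 0.328). A change at least as far down was found at 10.8% of sites. The site entered through the untreated p300 list alone, so the downward direction was largely set by how it was found. With 22 reads in 4 libraries, against a median of 33 over the tested sites, the depth left a wide interval. The authors' score was 65.01, rank 7131 of 12421 untreated p300 peaks.

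Neither of the 2 p300 sites was called at an adjusted p of 0.05, and neither had an unadjusted p below 0.05 in this fit without a replicate block. Over the genome the same limma voom fit called 1.97% of sites higher and 0.213% lower after LPS. Summed over both sites, scaled reads changed by 0.47 on the log2 scale (exact permutation test over the 4 libraries, two-sided, p = 0.333, the smallest that 2 against 2 can give).

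The balance between the 2 sites does not depend on library scaling, because both are read in the same library. It is not free of background, since the -9.7 kb site is 804 bp wide and the 38.0 kb site 241 bp. Input had 8 reads in the first and 2 in the second. The -9.7 kb site held 1.25 and 1.62 times the p300 reads of the 38.0 kb site in untreated replicates 1 and 2. After LPS it held 6.00 and 14.7 times as many in replicates 1 and 2. Each site entered only through the list of the condition in which its p300 is high, so a rise of this p300 ratio was largely set by how the sites were found. For PU.1 in the same 2 intervals the ratio was 0.513 untreated and 1.19 after LPS. This ratio was chosen after the values of both sites were seen, rests on 2 to 13 reads in its divisor for p300, and was not tested.

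**Figure D2:**
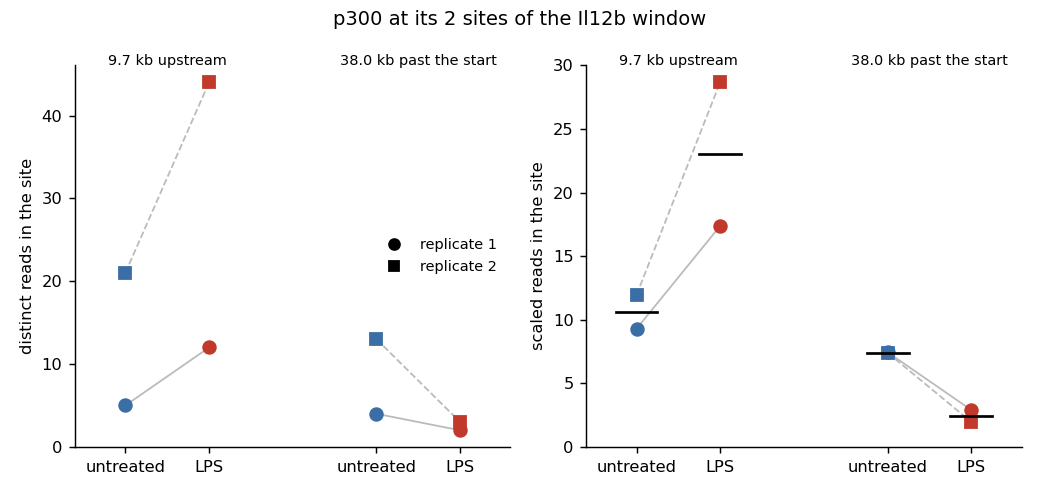
p300 at the -9.7 kb and 38.0 kb sites, as distinct reads (left) and as scaled reads (right), with circles for replicate 1, squares for replicate 2, blue for untreated, red for LPS, grey lines joining equal replicate numbers and black bars for the means. At -9.7 kb both lines go up, from 5 to 12 and from 21 to 44 reads, and at 38.0 kb both go down.

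PU.1 occupied the locus before LPS. All 9 untreated PU.1 peaks overlapped an LPS PU.1 peak, against 80.8% of untreated PU.1 peaks in the genome. Of the 12 LPS PU.1 peaks, 3 overlapped no untreated one, against 20.4% in the genome. These lay at -50.2, -34.2 and 47.4 kb and held 4, 4 and 5 reads in the untreated library and 7, 10 and 10 in the LPS library. Over all 12 PU.1 sites the libraries had 523 and 580 reads, a ratio of 1.11 (exact 95% interval 0.984 to 1.25). With 1 library per condition these ratios compare libraries, and no p-value was computed.

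Of the 12 PU.1 sites, 8 had at least 40 reads in both libraries together. None of the 8 had a ratio above 2 or below 0.5, which 3.14% and 2.34% of 42940 such sites in the genome had. The interval lay above 1 at 2 of the 8 sites, against 7.92% in the genome, and below 1 at 0 of 8, against 8.81%. The median log2 ratio was 0.06 over the 8 sites and -0.04 over the genome.

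The -9.7 kb site, where the LPS p300 peak lay, had the highest PU.1 ratio of the 8. Its PU.1 reads went from 39 to 75, a ratio of 1.92 (1.29 to 2.91), and 3.84% of sites in the genome had a ratio at least as high. Its share of all PU.1 reads at the 12 sites was 7.46% untreated and 12.9% after LPS. The authors' score of the PU.1 peak there was 165.49 in the untreated and 323.0 in the LPS list. The other site with an interval above 1, at -27.0 kb, is named because of that value. Its reads went from 42 to 69, a ratio of 1.64 (1.104 to 2.47), and 6.72% of sites in the genome reached it.

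The 38.1 kb site, which holds the untreated p300 peak, had 85 untreated and 66 LPS PU.1 reads, a ratio of 0.776 (0.554 to 1.08). At 14.9 kb, just past the gene end, the reads were 100 and 79 (0.790, 0.581 to 1.07). At -1.1 kb, the PU.1 site nearest to the gene start, they were 76 and 95 (1.25, 0.915 to 1.71). The intervals of these 3 ratios held 1. PU.1 and p300 reads had the same direction at both p300 sites. The p300 direction was largely set by the list through which each site entered, and the PU.1 interval at 38.1 kb held 1. This is a description of 2 sites and was not tested.

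**Figure D3:**
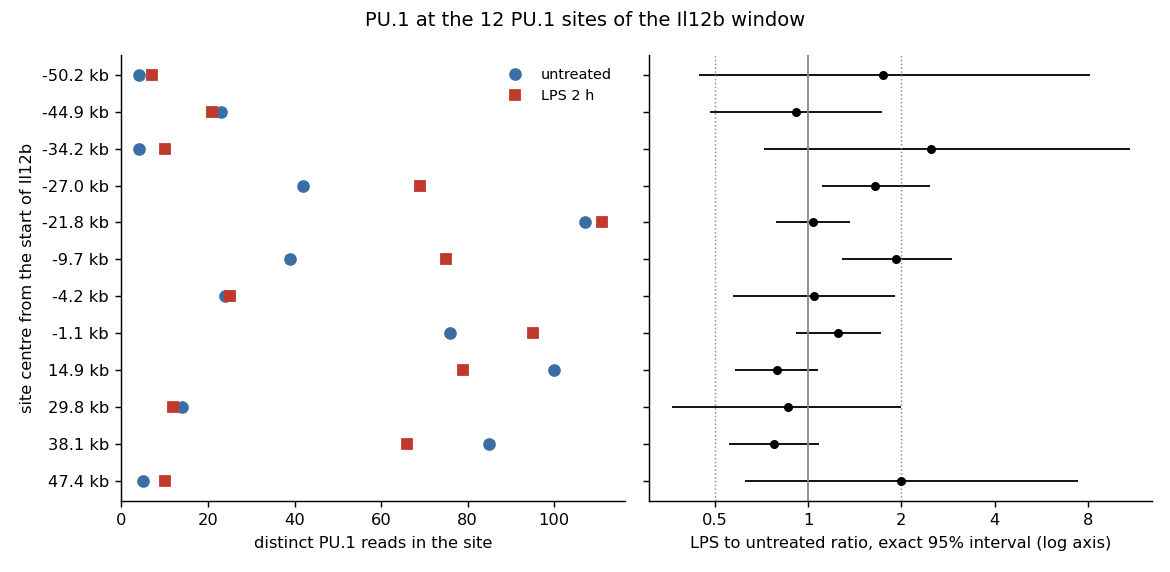
PU.1 reads in the untreated (blue circles) and LPS (red squares) library at the 12 PU.1 sites, ordered by position, and their LPS to untreated ratio on a log axis with exact 95% intervals (right, dotted lines at 0.5 and 2). The intervals at -27.0 and -9.7 kb lie above 1, and the other 10 cross it.

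The PU.1 site with most reads in the locus had no p300 peak. That was the usual state: 89.8% to 91.3% of PU.1 peaks in the genome overlapped none, in the 4 pairs of lists. At -21.8 kb (44191444 to 44192009) PU.1 had 107 reads untreated and 111 after LPS, more than at any other of the 12 sites and more than at 93.3% of PU.1 sites in the genome. Its ratio was 1.04 (0.788 to 1.37). p300 had 4 and 2 reads in untreated replicates 1 and 2 and 2 and 1 in the LPS replicates, and input had 4. Pooled p300 reads stood at 0.736 of input untreated (0.174 to 3.54) and at 0.402 after LPS (0.0589 to 2.37). No H3K4me1 peak overlapped this site either, as was so for 51.7% of untreated and 53.4% of LPS PU.1 peaks in the genome. The nearest H3K4me1 peak lay 5083 bp away from its untreated PU.1 peak. PU.1 reads at -9.7 kb were fewer, while p300 was there at 3.75 times input after LPS. The -9.7 kb site has an LPS p300 peak and the -21.8 kb site has none. This contrast in p300 was therefore largely set by the peak calls, and it was not tested.

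At the remaining PU.1 sites without a p300 peak, p300 reads were set beside those of input. At -1.1 kb the 4 p300 libraries had 5, 12, 4 and 15 reads (untreated replicates 1 and 2, then LPS replicates 1 and 2), and input had 10. At 14.9 kb they had 2, 15, 1 and 9, with 5 input reads. Replicate 2 libraries were the higher ones in both conditions at these sites. Over the 10 PU.1 sites without a p300 peak, the pooled LPS p300 to input ratio had an interval holding 1 wherever input had a read, and at 29.8 kb input had none. The same held for the untreated pool. Library by library, the exception was 14.9 kb, where untreated replicate 2 stood at 3.07 times input (1.06 to 10.8). At the other 8 of these sites with an input read, p300 in each single library was not distinguishable from input at this depth. All 10 sites had no peak called from these p300 reads, so a lack of excess over input was largely set in advance. With 10 input reads at most per site, the intervals were also wide.

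H3K4me1, measured only before LPS, already overlapped the gene side of the -9.7 kb site. The 9 H3K4me1 peaks held 271 H3K4me1 and 43 input reads over 7225 bp, a ratio of 6.26 (4.52 to 8.84) per distinct read. On the log2 scale, with 1 read added to each sum, the ratio was 2.62. It became 4.74 when libraries were scaled by reads in peak-free bins, so the size of this ratio depends on the scaling. With 1 read added to each, the median log2 ratio of the 9 peaks was 2.12, and that of all 84743 H3K4me1 peaks was 2.51. The peak at -9.4 kb (44203556 to 44204713) had 41 reads against 9 in input, a ratio of 4.52 (2.16 to 10.6). The -4.3 kb peak had 34 against 7 (4.82, 2.10 to 12.9).

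The most marked region lay past the gene. At 17.3 kb (44230240 to 44231287) H3K4me1 had 57 reads and input 4, a ratio of 14.1 (5.23 to 53.7), higher than 91.3% of H3K4me1 peaks in the genome on the log2 scale with 1 read added. That peak overlapped no PU.1 and no p300 peak. With the peaks at 14.8 kb (47 reads against 6) and 15.7 kb (16 against 2) it formed a run of 3 marked stretches past the gene end. A peak inside the gene, at 10.6 kb, had 34 reads against 5. The remaining peaks, at -27.4, -0.4 and 37.5 kb, had 18, 11 and 13 reads against 5, 2 and 3.

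Marks and factors coincided only in part, as they did over the genome. Of the 9 H3K4me1 peaks, 4 overlapped a PU.1 site (50.9% in the genome) and 1 a p300 peak, the LPS one at -9.7 kb. In the genome 9.31% of H3K4me1 peaks overlapped an LPS and 10.2% an untreated p300 peak. Of the 12 PU.1 sites, 4 overlapped an H3K4me1 peak (44.6% in the genome). Near the gene start the H3K4me1 peak at -0.4 kb began 1 bp after the end of the PU.1 site at -1.1 kb. Around the 38.0 kb p300 site, H3K4me1 had 8 reads within 250 bp of the centre. Beyond that and up to 1 kb away it had 13 reads on the side of the gene and 15 on the far side, and input had 6 and 5.

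**Figure D4:**
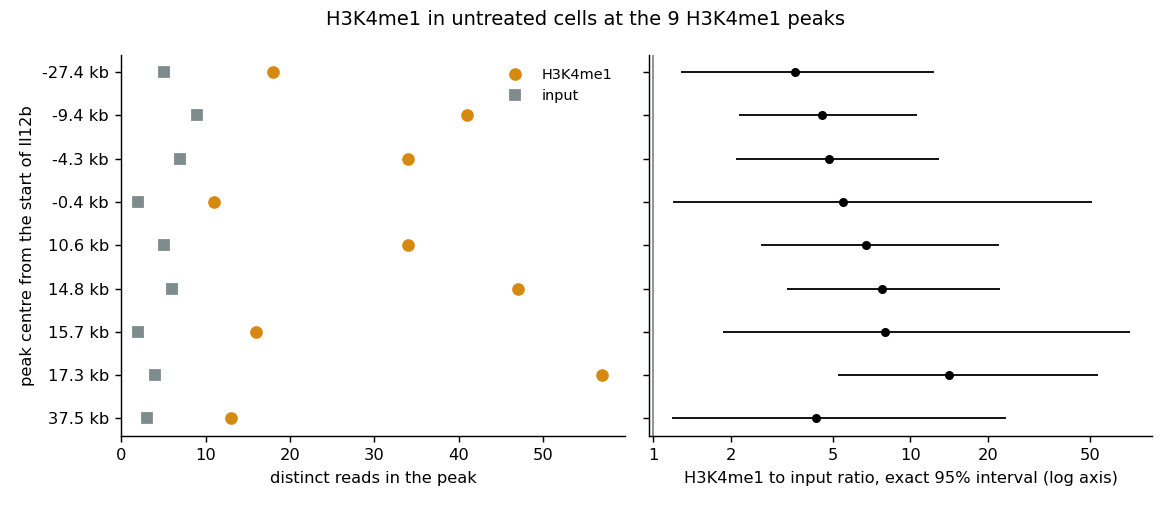
H3K4me1 (orange circles) and input (grey squares) reads in untreated cells at the 9 H3K4me1 peaks, and their ratio per distinct read on a log axis with exact 95% intervals (right). All 9 intervals lie above 1, as these peaks were called against input, and the 17.3 kb peak has the highest ratio, 14.1.

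In the -9.7 kb region the median positions of PU.1 reads and of p300 reads of the replicate 2 libraries lay close together. That of input reads lay close to them too, and H3K4me1 reads lay off toward the gene. Within 600 bp of the p300 site centre, the median position of PU.1 reads was -9652 bp from the gene start in untreated cells and -9701 bp after LPS. For p300 it was -9635 bp (22 reads) in untreated replicate 2 and -9755.5 bp (44 reads) in LPS replicate 2. The replicate 1 libraries had 10 and 14 reads there and medians of -9367 bp untreated and -9816 bp after LPS. Input had 9 reads there and a median of -9708 bp. Evenly spread reads would also have a median near the centre, so these medians do not show that p300 and PU.1 lay together. Beyond 250 bp and up to 1 kb off the centre, H3K4me1 had 25 reads on the gene side and 3 on the far side, with 3 and 3 in input.

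Parted at its centre, the PU.1 site showed reads on both sides. On the far side PU.1 reads went from 15 to 36 (ratio 2.40, 1.28 to 4.72), and on the gene side from 24 to 39 (1.63, 0.953 to 2.82). On the far side p300 counts were 1 and 9 without LPS and 10 and 26 with it, replicate 1 first. On the gene side it had 6 and 12, then 2 and 18. On the far side both LPS libraries lay above both untreated ones in raw reads, and on the gene side they overlapped. In scaled reads, 26.9% of whole p300 sites showed such a separation upward, and no share was computed for parts of sites. The p300 site here entered through the LPS list alone, so a rise was largely set by how it was found. The parting was made after the profile was seen, and the difference between the sides was not tested.

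**Figure D5:**
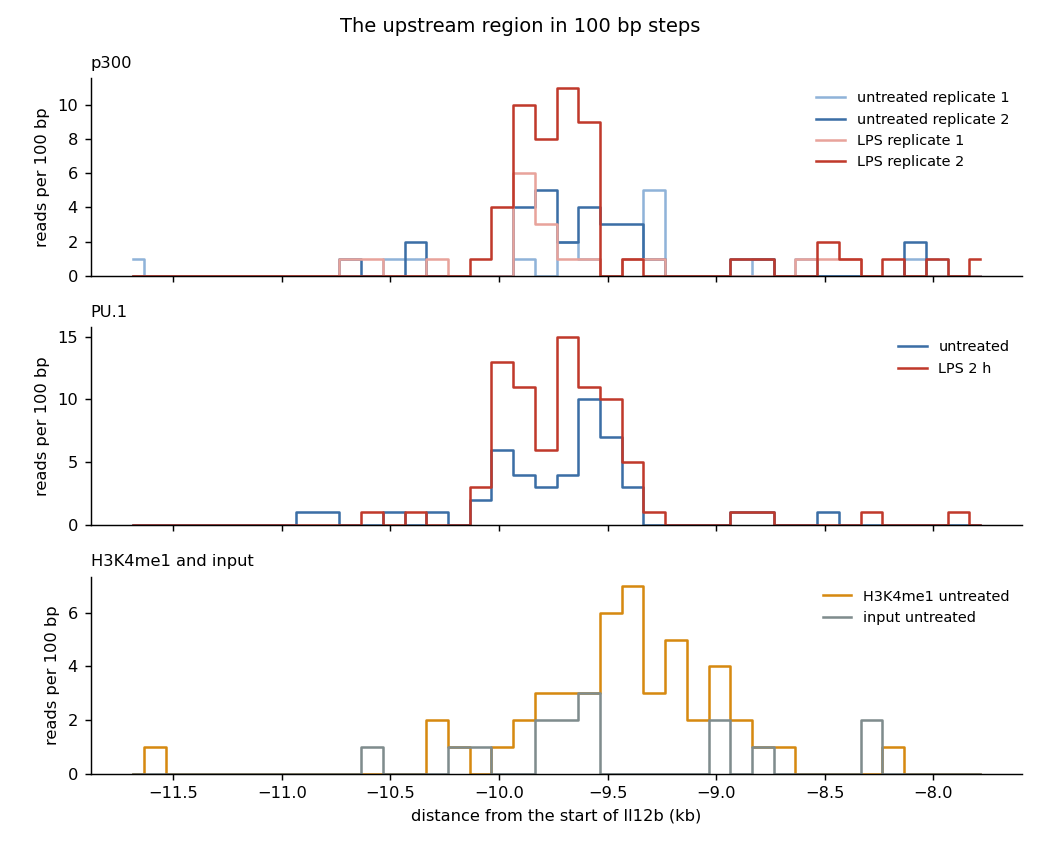
Reads per 100 bp within 2 kb of the -9.7 kb p300 site, against the distance from the start of Il12b in kb, for the 4 p300 libraries, the 2 PU.1 libraries, and H3K4me1 with input. p300 and PU.1 steps are highest in the LPS libraries, and H3K4me1 lies mostly on the gene side, with 25 reads against 3 beyond 250 bp from the centre.

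The gene start held no p300 or PU.1 peak, but both factors had more reads there after LPS. In the 500 bp on each side of it, PU.1 had 8 reads untreated and 24 after LPS, a ratio of 3 (1.30 to 7.72). Among 15581 bins of 1 kb without a PU.1 peak and with at least 20 PU.1 reads, 7.38% had a ratio above 2. The share that reached 3 was not computed. Before the start PU.1 had 8 reads untreated and 22 after LPS, and after the start 0 and 2. The stretch before the start lies close to the -1.1 kb PU.1 site, which ends at 44212931. p300 had 3 and 1 reads in untreated replicates 1 and 2 and 6 and 10 in the LPS replicates, with 2 in input. Both LPS libraries lay above both untreated ones, also per distinct read, as in 15.3% of 215632 bins of 1 kb without a p300 peak and with at least 20 p300 reads. The p300 ratio was 2.34 in replicate 1 (0.499 to 14.4) and 10.2 in replicate 2 (1.45 to 443). H3K4me1 there had 19 reads and input 2. This window was set by the gene start, but its values were looked at after those of the peaks, and the start itself is approximate.

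Over the 12.6 kb of the gene body outside all peaks, PU.1 had 37 and 55 reads (ratio 1.49, 0.962 to 2.32). p300 per distinct read changed by 1.02 in replicate 1 (0.664 to 1.58) and 1.20 in replicate 2 (0.768 to 1.89). In the 95.2 kb of the window that lie outside the gene, its start and all peaks, PU.1 had 134 and 169 reads (1.26, 0.999 to 1.59), and p300 changed by 1.05 and 1.09 in the replicate pairs. H3K4me1 in the gene body outside peaks stood at 0.759 of input (0.487 to 1.17).

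Sites of similar read pattern were sought among all other p300 sites, by Euclidean distance over log2(scaled reads + 1) of the 4 p300 and 2 PU.1 libraries. The nearest to the -9.7 kb site lay on chromosome 1 from 64272293 to 64273197 (distance 0.436). Its p300 libraries had 4, 21, 14 and 45 reads, in the order used above, and PU.1 went from 35 to 85. Next came chromosome 1 from 184232206 to 184233227 (0.554) and chromosome 5 from 106228745 to 106229756 (0.580). All 3 overlapped an H3K4me1 peak, as did 48.0% of all p300 sites. The first 2 also overlapped an untreated PU.1 peak, and the one on chromosome 5 did not, unlike the -9.7 kb site. They were picked for likeness, so their reads are a description.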

How the data were processed

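The authors deposited aligned reads and peak lists. The build, mm9, is from the submitters' processing notes. The deposited column description gives MACS as the caller and each peak's score as -10 times log10 of its p-value. p300 peaks came from both replicates pooled, per the series' design text. Aligner, read filters and MACS version are not given in the sources used here. A header disagreed with its sample: the PU.1 list labelled untreated carries LPS in its header. The label was followed.

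Reads were counted here from the read positions, which are no count table. Duplicate positions on a strand counted as 1 read, on chromosomes 1 to 19 and X, and 5′ ends were moved 100 bp downstream. Sites overlapped when they shared 1 bp. Reads at 19879 merged p300 sites were scaled by the median of ratios. The 19727 with at least 10 reads were fitted in R 4.3.3 by voom of limma 3.58.1. Treatment was the single term, with Benjamini-Hochberg adjustment over all sites at 0.05. PU.1 was scaled by the median of ratios over PU.1 sites, and H3K4me1 by distinct reads. Ratios carry exact 95% intervals conditional on the sum of both counts. The code was tested on simulated data, with Python 3.11.15, numpy 2.4.6, pandas 2.3.3, scipy 1.17.1 and matplotlib 3.10.9. The window, motifs and comparisons were chosen with earlier results of these data known. All members are accounted for. Described singly were all p300 sites, the PU.1 sites at a p300 site or within 1 kb of the gene start, the 5 PU.1 sites with most reads, and those named for their value.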

Additional observations from a re-analysis of the deposited data

How the results depend on the processing

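Neither p300 site of the window was called under any of the 12 alternatives run (0 calls each). At -9.7 kb the log2 fold change ran from 0.68 (without LPS replicate 2) to 1.36 (without LPS replicate 1), with limma adjusted p from 0.117 to 0.862, and at 38.0 kb from -1.75 to -1.11, with adjusted p from 0.193 to 0.716. Leaving out a library leaves 1 sample in a condition, which is then assumed to vary like the other. Total distinct reads or peak-free bins as library size moved the median log2 change of all sites to 0.20 and 0.16. With total distinct reads the values were 1.22 and -1.29. The summed p300 change kept its direction, from 0.21 to 0.83 when single libraries were left out. Over the genome the same fit called 388 sites higher and 42 lower. It called 0 with total reads or peak-free bins as library size (1494 and 1449 at unadjusted p below 0.05) and 0 without untreated replicate 2, LPS replicate 1 or LPS replicate 2 (3921, 1772 and 781 at unadjusted p below 0.05). Without untreated replicate 1 it called 438 and 183. With the replicate block it called 896 and 395, and the sites had 1.13 (limma adjusted p = 0.117) and -1.57 (adjusted p = 0.193), and 1 of the 2, the -9.7 kb site, then had an unadjusted p below 0.05. Together with total reads, added after seeing the data, the block gave 1.24 and -1.47. The same-numbered libraries deviated together (Pearson's r 0.274 across 19727 sites, which are not replicates), but only the file names give the numbers. Without a minimum of reads, 1 PU.1 site, at -34.2 kb with 4 and 10 reads, passed 2-fold. The pooled H3K4me1 to input log2 ratio, with 1 read added to each sum, was 2.62, and 4.74 with peak-free bins as library size. The PU.1 ratio at -9.7 kb ran from 1.85 to 1.92.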
